A study of Mus musculus with 4 samples.

Results

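NK-like nuclei were picked out of tumours grown from Sun1_KO or Sun1_WT CT26 cells without using any granzyme, perforin or other granule gene, and they numbered 93 in the Sun1_KO tumour library and 95 in the Sun1_WT library, 188 of the 5859 nuclei in the 2 count tables. A nucleus belonged to the class when 6 natural killer genes (Ncr1, Klrb1c, Klre1, Txk, Clnk and Il2rb) summed to at least 3 unique molecular identifiers (UMIs, each marking 1 captured RNA molecule) and 5 T cell genes (Cd3e, Cd3d, Cd3g, Cd8a and Themis) summed to at most 1. It also needed at least 500 UMIs, at least 300 genes, at most 20% of UMIs from mitochondrial genes and fewer than 5 UMIs of Hmga2, a gene high in the tumour cells, per 10000 UMIs. Every gene of that gate was therefore chosen by its reading, and those genes are given only as a description.

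CT26 is a mouse colon cancer line. Sun1_KO or Sun1_WT CT26 cells were placed under the skin of the right flank of BALB/c mice, the strain the line came from, and the tumours were taken at day 14 and brought to a suspension of nuclei from which RNA and open chromatin were read in the same nucleus. The genotype is that of the injected tumour cells. The NK-like nuclei are taken to come from the host mouse, whose genotype the labels do not set apart between the arms. The labels do not say how Sun1 was removed, whether the line was 1 clone, or how many tumours went into a library. Each genotype gave 1 RNA library and 1 matching chromatin library. A difference below is therefore one between 2 libraries with no replicate check and no test, nuclei are not replicates, and all intervals are 95% intervals that cover counting error only.

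Natural killer cells are innate lymphocytes that kill target cells by releasing granules filled with perforin, which opens membranes, and granzymes, which are proteases that enter the target and start its death. Their response is set by the balance of activating and inhibitory receptors on their surface, and by cytokines such as interleukin 15 that keep them alive and load their granules. In tumours they can also secrete interferon gamma and chemokines that draw in dendritic cells and T cells. Transcription factors of the Runx, T-box, STAT and Ets families are known to act on genes of NK cells, among them granule genes.

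The promoters of 3 granule genes and of the receptor gene Ncr1 show what DNA stood in the regions whose accessibility is compared further on. Each runs from 250 bases before to 50 bases after the RefSeq start of the gene on assembly GRCm38.p6, 5′ to 3′ along the gene. Capitals mark TGTGGT or its reverse complement ACCACA, a core Runx motif, and GGTGTGA or its reverse complement TCACACC, a T-box motif. They lay at chr14:56262285-56262584 (minus strand, granzyme B), chr10:61297586-61297885 (plus strand, perforin), chr7:43436888-43437187 (plus strand, a granule membrane protein) and chr7:4337465-4337764 (plus strand, the activating receptor NKp46).
Gzmb: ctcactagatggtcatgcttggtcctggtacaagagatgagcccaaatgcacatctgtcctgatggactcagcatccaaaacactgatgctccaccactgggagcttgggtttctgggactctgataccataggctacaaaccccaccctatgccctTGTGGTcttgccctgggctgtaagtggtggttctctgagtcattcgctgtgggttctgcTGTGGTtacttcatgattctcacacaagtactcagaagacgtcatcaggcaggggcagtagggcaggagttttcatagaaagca
Prf1: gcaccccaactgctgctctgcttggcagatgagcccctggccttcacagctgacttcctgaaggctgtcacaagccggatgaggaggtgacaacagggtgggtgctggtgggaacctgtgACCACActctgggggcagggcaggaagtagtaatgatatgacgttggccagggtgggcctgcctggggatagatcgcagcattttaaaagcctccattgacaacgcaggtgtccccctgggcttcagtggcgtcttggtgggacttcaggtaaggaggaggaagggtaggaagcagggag
Nkg7: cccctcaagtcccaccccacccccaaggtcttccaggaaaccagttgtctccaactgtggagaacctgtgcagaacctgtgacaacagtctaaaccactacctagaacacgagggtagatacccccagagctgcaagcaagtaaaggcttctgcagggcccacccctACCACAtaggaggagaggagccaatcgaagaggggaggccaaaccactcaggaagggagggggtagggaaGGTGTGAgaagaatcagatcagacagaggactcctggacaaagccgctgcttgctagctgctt
Ncr1: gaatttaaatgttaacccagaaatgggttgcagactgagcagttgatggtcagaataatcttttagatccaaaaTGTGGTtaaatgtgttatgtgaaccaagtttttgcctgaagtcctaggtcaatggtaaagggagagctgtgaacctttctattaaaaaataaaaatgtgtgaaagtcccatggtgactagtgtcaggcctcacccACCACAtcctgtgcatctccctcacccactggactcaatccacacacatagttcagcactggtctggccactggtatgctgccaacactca
The Gzmb and Ncr1 promoters held 2 Runx motifs each, the Prf1 and Nkg7 promoters held 1 each, and the Nkg7 promoter held 1 T-box motif. Among 32851 mouse promoters of the same length, 16.8% held the Runx motif and 3.98% the T-box motif on either strand. The promoters shown are examples: of other granule genes, those of Gzmc and Cst7 held the Runx motif and those of Fasl, Ctsc and Tnfsf10 did not. A match describes the letters and is not evidence that a factor was bound. All 4 windows overlapped a region called open in both chromatin libraries.

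The Sun1_KO and Sun1_WT tables held 2404 and 3455 nuclei with 35471291 and 53707675 UMIs, of which 2172 and 3345 nuclei passed the UMI, gene and mitochondrial limits. The median nucleus that passed had 12745 UMIs in Sun1_KO and 14268 in Sun1_WT. The libraries shared 12 cell barcodes, none of them among the NK-like nuclei. Mitochondrial UMIs made up 11.2% of the UMIs of Sun1_KO nuclei and 6.82% of those of Sun1_WT nuclei. Sun1 itself, the targeted gene, had 65.8 CPM (UMIs per 1000000 non-mitochondrial UMIs of the class) in Sun1_KO and 105 CPM in Sun1_WT tumour nuclei, so its RNA was lower but still counted in the library labelled Sun1_KO. The same gene had 15 UMIs in Sun1_KO and 18 in Sun1_WT NK-like nuclei, with a log2 ratio of 0.22 (-0.88 to 1.29).

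NK-like nuclei made up 4.28% of the Sun1_KO nuclei that passed the limits (exact interval 3.47 to 5.22) and 2.84% of the Sun1_WT nuclei (2.30 to 3.46), a ratio of 1.51. The ratio was not particular to them in size: nuclei gated on the T cell genes made up 1.52% of Sun1_KO and 0.897% of Sun1_WT nuclei, a ratio of 1.69, and nuclei gated on the complement genes C1qa, C1qb and C1qc, which macrophages make, made up 9.58% and 6.82%, a ratio of 1.40. Tumour nuclei with high Hmga2 made up 69.8% of Sun1_KO and 72.7% of Sun1_WT nuclei, a ratio of 0.960. These are shares of a dissociated suspension and give no number of cells per tumour. After each nucleus was thinned at random to 1000 UMIs, the same gate took 67 of 2076 Sun1_KO nuclei (3.23%) and 74 of 3288 Sun1_WT nuclei (2.25%), a ratio of 1.43.

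The summed NK genes had a median of 9 UMIs in Sun1_KO and 16 UMIs in Sun1_WT members, and only 3 and 1 members stood at the lowest sum of 3. Just outside, 7 Sun1_KO and 3 Sun1_WT nuclei had a sum of 2. A further 41 Sun1_KO and 25 Sun1_WT nuclei met the lymphocyte criteria but carried too much Hmga2 and were left out. The NK-like nuclei were small in RNA: their median was 2545 UMIs and 1512 genes in Sun1_KO, against 3176 UMIs and 1766 genes in Sun1_WT. Together they held 285224 non-mitochondrial UMIs in Sun1_KO and 397047 in Sun1_WT, and every level below is a share of these sums, so fewer transcripts of a gene and more of all others cannot be told apart.

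The gate genes read as follows. Ncr1 stood at 764 CPM in Sun1_KO and 791 CPM in Sun1_WT, and Il2rb, the receptor chain that binds interleukin 2 and interleukin 15, at 1153 CPM in Sun1_KO and 1279 CPM in Sun1_WT. Clnk, an adaptor of immunoreceptor signalling, stood at 754 CPM in Sun1_KO and 989.8 CPM in Sun1_WT, Txk, a Tec-family kinase, at 571 CPM in Sun1_KO and 743 CPM in Sun1_WT, and Klre1, a lectin-like receptor, at 333 CPM in Sun1_KO and 421 CPM in Sun1_WT. Klrb1c, which encodes NK1.1 in strains that carry that form, stood at 126 CPM in Sun1_KO and 194 CPM in Sun1_WT. All 6 were lower in Sun1_KO, and their sum was 3702 CPM in Sun1_KO against 4418 CPM in Sun1_WT. The 5 T cell genes together gave 9 UMIs in Sun1_KO and 6 in Sun1_WT, with Cd8a and Themis at 0.

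Several genes outside the gate matched the NK label. The 20 genes with the highest ratio of NK-like to next class in both libraries held Gzma, Gzmc and Gzmd, the Ly49 receptor genes Klra3 and Klra7, the lectin receptor genes Klrb1f and Klri1, Klrg1, Cd244a and the integrin gene Itga2, and 17 of the 20 were not in the gate. These ratios were floored: 0.5 UMIs of the smallest other class, as CPM, were added to both levels. The floor lowers a ratio where the next class had few UMIs. The floored ratio was 80.9 in Sun1_KO and 87.8 in Sun1_WT for Gzma, and 28.4 and 26.9 for Klrb1f. For Itga2, the CD49b chain used to stain mouse NK cells, it was 33.0 and 7.81. The same list held Car2, a carbonic anhydrase, at floored ratios of 18.5 and 36.0, and Vegfc, a growth factor of lymphatic vessels, at 9.10 and 13.7. It also held Itgb3, an integrin chain, at 9.48 and 9.01, and Trdc, a T cell receptor delta chain gene, at 6.21 and 15.2. The nuclei were chosen by RNA, so these ratios describe the class and test nothing.

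RNA of the constant region of the T cell receptor beta chain was common in these nuclei although the T cell genes of the gate were near 0. Trbc1 had 208 UMIs in Sun1_KO and 279 in Sun1_WT, in 70 of 93 Sun1_KO and 84 of 95 Sun1_WT nuclei. Trbc2 had 25 UMIs in Sun1_KO and 38 in Sun1_WT, and the delta chain gene Trdc had 27 UMIs in Sun1_KO and 34 in Sun1_WT. T cell receptor constant regions are known to be transcribed in some NK cells without a productive rearrangement, and reads over a constant region do not show one.

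Cytotoxic granule genes had the lowest median of the role lists in Sun1_KO relative to Sun1_WT NK-like nuclei. Of the 17 granule effector genes listed, 12 reached 50 summed UMIs, and 10 of those 12 were at least 2-fold lower in Sun1_KO, with none higher by that much. Across all 3220 genes with 50 summed UMIs, 135 genes (4.19%) were lower in Sun1_KO by 2-fold or more and 148 (4.6%) were higher by as much. The median log2 ratio of Sun1_KO over Sun1_WT was -1.25 over the 12 genes and 0.12 over all 3220. The granule genes together made up 5729 CPM in Sun1_KO and 16837 CPM in Sun1_WT, a log2 ratio of -1.55 (-1.63 to -1.48).

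Genes of the killing proteins were among the members with the largest differences in RNA. Granzyme A, a tryptase, had 370 Gzma UMIs in Sun1_KO and 2150 in Sun1_WT, which is 1297 CPM in Sun1_KO and 5415 CPM in Sun1_WT, a log2 ratio of -2.06 (-2.22 to -1.90). Granzyme B, which cuts after aspartate and activates caspases, had 673 CPM in Sun1_KO and 2740.2 CPM in Sun1_WT, a log2 ratio of -2.02 (-2.25 to -1.80). Perforin had 729 CPM in Sun1_KO and 1672 CPM in Sun1_WT, a log2 ratio of -1.20 (-1.43 to -0.97). Over all NK-like nuclei the granzyme A and B ratios lay below that of perforin, with intervals that do not overlap.

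Granzyme C was strong in a minority of nuclei. Gzmc had 862 CPM in Sun1_KO and 3085 CPM in Sun1_WT, a log2 ratio of -1.84 (-2.04 to -1.64), and its UMIs lay in 26 Sun1_KO and 47 Sun1_WT nuclei. Its neighbours in the granzyme cluster were rarer: Gzmd had 32 UMIs in Sun1_KO and 91 in Sun1_WT, in 5 and 12 nuclei, and Gzme had 11 UMIs in Sun1_KO and 27 in Sun1_WT, in 4 and 8 nuclei. Gzmf had 2 UMIs in Sun1_KO and 184 in Sun1_WT, but the UMIs lay in 2 Sun1_KO and 6 Sun1_WT nuclei, and 1 Sun1_WT nucleus held 63, so its log2 ratio of -5.73 rests on very few nuclei. Gzmc to Gzmf are closely similar neighbours, and no source used here says how reads that match several of them were counted.

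RNA of genes whose proteins build or fill the granule was also lower, with exceptions. Nkg7, a granule membrane protein needed for degranulation, had 372 CPM in Sun1_KO and 1050.2 CPM in Sun1_WT, a log2 ratio of -1.49 (-1.82 to -1.19). Srgn, the proteoglycan core on which granzymes are packed, had 463 CPM in Sun1_KO and 937 CPM in Sun1_WT, a log2 ratio of -1.01 (-1.32 to -0.73). Cst7, an inhibitor of the cathepsins that mature granzymes, was at -1.04 (-1.87 to -0.30), and Fasl, the death ligand held on the granule membrane, at -1.30 (-2.03 to -0.67). Ctsw, a cathepsin of cytotoxic lymphocytes, was at -0.46 (-0.86 to -0.07) and so short of 2-fold.

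Ctsc, the protease that removes the propeptide of granzymes, stood apart from the list at 0.80 (0.48 to 1.13), higher in Sun1_KO. Its level in C1q-gated nuclei was 3768 CPM in Sun1_KO and 3896 CPM in Sun1_WT, against 638 CPM in Sun1_KO and 365 CPM in Sun1_WT NK-like nuclei, and its NK-like log2 ratio turned to -0.14 without nuclei holding C1q or Hmga2 UMIs and to -0.37 in nuclei under 5% mitochondrial UMIs. Tnfsf10, the TRAIL death ligand, had 23 UMIs in Sun1_KO and 12 in Sun1_WT, too few to be counted among the 12. Gzmk had 2 UMIs in Sun1_KO and 3 in Sun1_WT, and Gzmm had 0 in both.

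**Figure D1:**
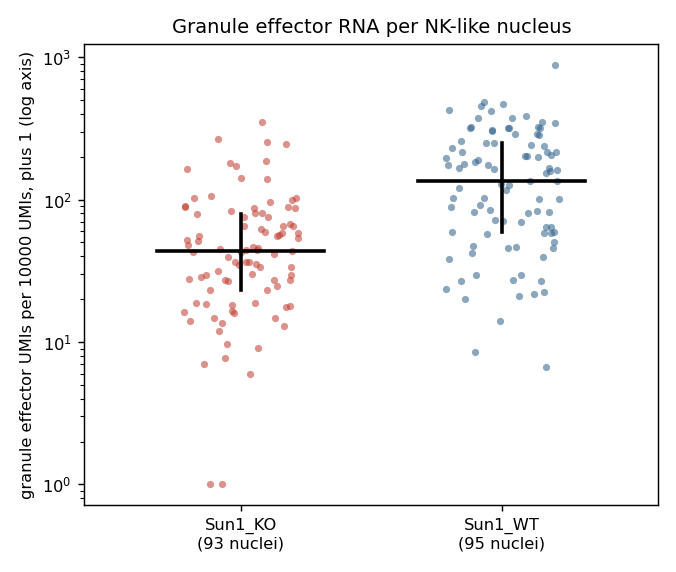
Granule effector UMIs per 10000 non-mitochondrial UMIs, plus 1 and on a log axis, with 1 point per NK-like nucleus, Sun1_KO on the left and Sun1_WT on the right, and the median marked. The medians are 42.6 in 93 Sun1_KO nuclei and 134 in 95 Sun1_WT nuclei, and the 2 clouds overlap.

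The difference was spread over many nuclei. The median nucleus had 42.6 granule UMIs per 10000 in Sun1_KO (quartiles 22.2 and 78.4, highest 352) and 134 in Sun1_WT (quartiles 57.9 and 249, highest 881), so the upper quartile of Sun1_KO nuclei lay below the median of Sun1_WT nuclei while the ranges overlapped. Nuclei with neither Gzma nor Gzmb numbered 22 of 93 in Sun1_KO (23.7%, 15.5 to 33.6) and 2 of 95 in Sun1_WT (2.11%, 0.256 to 7.40). When the gate itself was applied to nuclei thinned to 1000 UMIs, they numbered 22 of 67 (32.8%) in Sun1_KO and 10 of 74 (13.5%) in Sun1_WT. A Gzma UMI was found in 58.1% of Sun1_KO and 88.4% of Sun1_WT NK-like nuclei. In C1q-gated nuclei, which should lack the gene, it was found in 3.37% and 11.8%, at a median depth of 6155 and 6388.5 UMIs.

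The difference in share was also there at equal depth. With each nucleus thinned to 1000 UMIs, which left out 4 Sun1_KO and 2 Sun1_WT nuclei, a Gzma UMI was found in 49.4% of Sun1_KO nuclei (38.7 to 60.2) and 78.5% of Sun1_WT nuclei (68.8 to 86.3). Gzmb was found in 40.4% and 74.2%, Gzmc in 21.3% and 39.8%, Prf1 in 38.2% and 61.3%, and Nkg7 in 36.0% and 57.0%.

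RNA quality differed between the libraries. In NK-like nuclei the mitochondrial share was 9.04% in Sun1_KO and 3.73% in Sun1_WT, and UMIs of 84 ribosomal protein genes made up 7.01% and 11.0%. The higher mitochondrial share of Sun1_KO was found in T-gated (8.36% and 4.46%), C1q-gated (9.82% and 6.49%) and tumour nuclei (11.4% and 6.99%) as well. Among NK-like nuclei under 5% mitochondrial UMIs, 23 in Sun1_KO and 76 in Sun1_WT, the granule sum was at -1.49, Gzma was at -1.001, Gzmb at -1.18, Prf1 at -0.96, and 7 of the 12 genes were at least 2-fold lower. Among those with 5% or more, 70 and 19 nuclei, the sum was at -1.68 and Gzma at -2.68. The part of the mitochondrial and ribosomal differences in the Gzma result was not tested.

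Depth and admixed RNA were examined in the same manner. Within 2000 to 5000 UMIs, where median depth was 3101 UMIs in 48 Sun1_KO nuclei and 3090 in 52 Sun1_WT nuclei, the granule sum was at -1.37, and it was at -1.37 below and -1.83 above that range. Of the NK-like nuclei, 66 in Sun1_KO and 73 in Sun1_WT had no C1q UMI, and the sum was at -1.56 in them. By the NK gene sum that chose the nuclei, the granule sum was at -1.47 (-1.55 to -1.39) in the 74 Sun1_KO and 88 Sun1_WT nuclei with a sum of at least 7, and smaller, at -0.70 (-1.11 to -0.27), in the 19 and 7 nuclei with a sum of 3 to 6. Without nuclei holding any C1q or Hmga2 UMI, 9 of the 12 genes were at least 2-fold lower and the median was -1.53. With at most 1 C1q UMI allowed 6 of the 12 were, with the median at -1.05. In nuclei under 10000 UMIs the median was -1.26, with 8 of the 12 past 2-fold downward and 1 upward. Of all genes measured in these settings, in order, 85 of 1719, 118 of 2595 and 79 of 2444 were lower by as much. Under 10000 UMIs, 70 of the 2444 were higher by as much.

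The other classes give the level outside the NK-like nuclei. Among T-gated nuclei, only 33 in Sun1_KO and 30 in Sun1_WT, 5 granule genes were measured and 3 of them were at least 2-fold lower, the median being -1.12. Of all 739 genes measured in T-gated nuclei 28 (3.79%) were lower by as much, and the median of all 739 was 0.0081. Prf1 stood there at 193 CPM in Sun1_KO and 427 CPM in Sun1_WT, and Nkg7 at 300 and 561 CPM. C1q-gated nuclei had 3 measured granule genes with a median of -0.05, against 0.06 over all their measured genes, and tumour nuclei 15 with a median of 0.48, against 0.18. Gzma in tumour nuclei was at 9.02 CPM in Sun1_KO and 14.0 CPM in Sun1_WT.

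In regions called in both libraries, chromatin at the granule genes differed less between the libraries than their RNA did. Counts of regions within 1 kb of a gene were summed per class and given as CPM, here counts per 1000000 counts of the class. Gzma stood at 35.8 CPM in Sun1_KO and 38.7 CPM in Sun1_WT, a log2 ratio of -0.11 (-0.50 to 0.26). Gzmb stood at 56.7 CPM in Sun1_KO and 59.1 CPM in Sun1_WT, a log2 ratio of -0.06 (-0.36 to 0.24). Prf1 stood at 73.5 CPM in Sun1_KO and 61.4 CPM in Sun1_WT, at 0.26 (-0.02 to 0.54), and Nkg7 at 85.3 CPM in Sun1_KO and 62.8 CPM in Sun1_WT, at 0.44 (0.17 to 0.71). The intervals of the chromatin ratios of Gzma, Gzmb, Prf1 and Nkg7 all lay above those of their RNA ratios. Each of these 4 loci was a single region called in both libraries, which for Gzmb, Prf1 and Nkg7 overlapped the promoter whose bases are given. Gzma had 3 regions called in Sun1_KO and 1 in Sun1_WT, and Prf1 had 4 and 1. The Gzma promoter lay under a region called in Sun1_KO alone, so its accessibility was not compared.

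Over the 12 granule loci that reached 100 summed counts, the median log2 ratio was 0.09, the lowest was Gzmf at -0.76 and the highest Nkg7 at 0.44, and none was past 2-fold. For single regions the background was 52 of 17811 (0.292%) at least 2-fold more open in Sun1_KO and 157 (0.881%) at least 2-fold less open, with a median of 0.07. Srgn was at 0.32 (0.12 to 0.52), Fasl at 0.06 (-0.20 to 0.32) and Gzmc at -0.34 (-0.80 to 0.10). The deposited chromatin values were mostly even numbers, 76.9% of those above 0 in Sun1_KO and 74.3% in Sun1_WT NK-like nuclei, as when both ends of a fragment are counted, so these intervals are narrower than they should be.

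**Figure D2:**
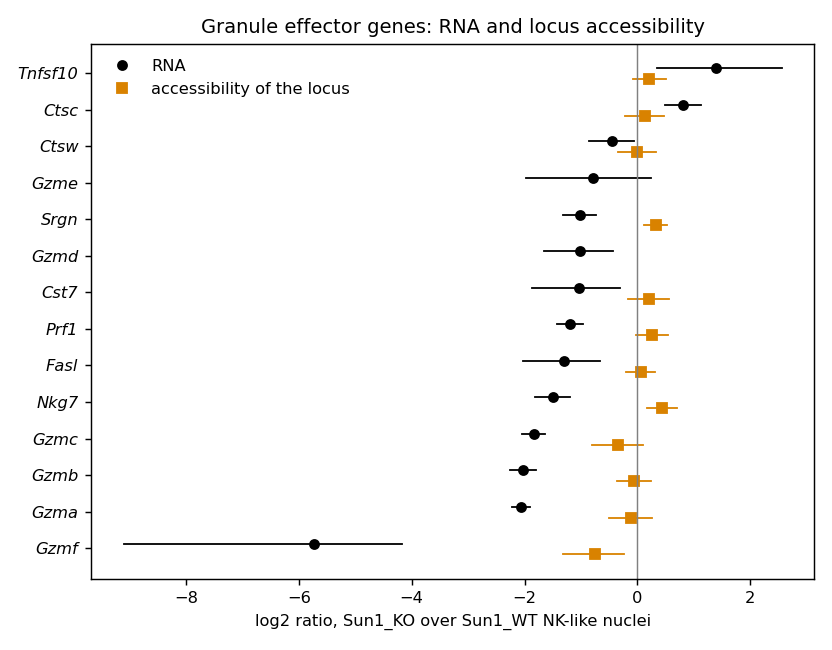
Log2 ratio of Sun1_KO over Sun1_WT in NK-like nuclei for granule effector genes, with RNA and locus accessibility as separate points and 95% counting intervals as bars. Accessibility is that of regions called in both libraries. Gzma, Gzmb and Prf1 have RNA ratios of -2.06, -2.02 and -1.20 while their loci lie at -0.11, -0.06 and 0.26.

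Accessibility was not used to choose the nuclei, so it gives an independent look at the class. The loci of the gate genes, without Klrb1c, which had no region called in both libraries, held 622 CPM in Sun1_KO NK-like nuclei (594 to 651) and 608 in Sun1_WT (583 to 635). This was 6.13 times the tumour level in Sun1_KO and 6.14 times in Sun1_WT, 6.72 and 7.37 times the level of C1q-gated nuclei, and 1.82 and 1.37 times that of T-gated nuclei. At least 1 count fell in these loci in 91 of 93 Sun1_KO and 92 of 95 Sun1_WT NK-like nuclei.

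At Ncr1 and Clnk few counts fell in T-gated nuclei. The Ncr1 locus had 39.8 CPM in Sun1_KO and 33.6 in Sun1_WT NK-like nuclei, against 5.38 and 0 in T-gated nuclei. Clnk had 110.3 and 99.6, against 1.35 and 0 in T-gated nuclei, but it was also open in tumour nuclei, at 30.9 and 31.4. The loci of Prf1, Gzma, Gzmb and Nkg7 together held 251 (234 to 270) in Sun1_KO and 222 (207 to 238) in Sun1_WT NK-like nuclei, 190 and 285 in T-gated nuclei, and 5.56 and 3.67 in tumour nuclei. The T cell locus Cd3e was close to shut at 2.36 and 1.72, against 64.6 and 34.5 in T-gated nuclei, and Cd8a had 0 and 0.574. The Cd3d locus was not shut, at 62.7 in Sun1_KO and 48.2 in Sun1_WT NK-like nuclei, against 49.5 and 35.6 in C1q-gated nuclei. All regions at Cd8a and the other T cell genes of the gate together held 69.5 and 56.0, against 211 and 190.7 in T-gated nuclei and 56.1 and 39.9 in C1q-gated nuclei.

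Macrophage and tumour loci were lower in the NK-like nuclei than in the C1q-gated and tumour nuclei. C1qa had 3.71 CPM in Sun1_KO and 2.87 in Sun1_WT, against 41.0 and 32.5 in C1q-gated nuclei. Csf1r, the receptor that keeps macrophages alive, had 11.1 and 11.2, against 83.7 and 77.5. Hmga2 had 1.01 and 9.47, against 63.1 and 60.3 in tumour nuclei. Eomes and Tbx21, the T-box factor genes of NK cells, were open at 66.1 CPM in Sun1_KO and 66.9 CPM in Sun1_WT and at 81.6 CPM in Sun1_KO and 99.9 CPM in Sun1_WT, with Tbx21 at -0.29 (-0.53 to -0.05).

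**Figure D3:**
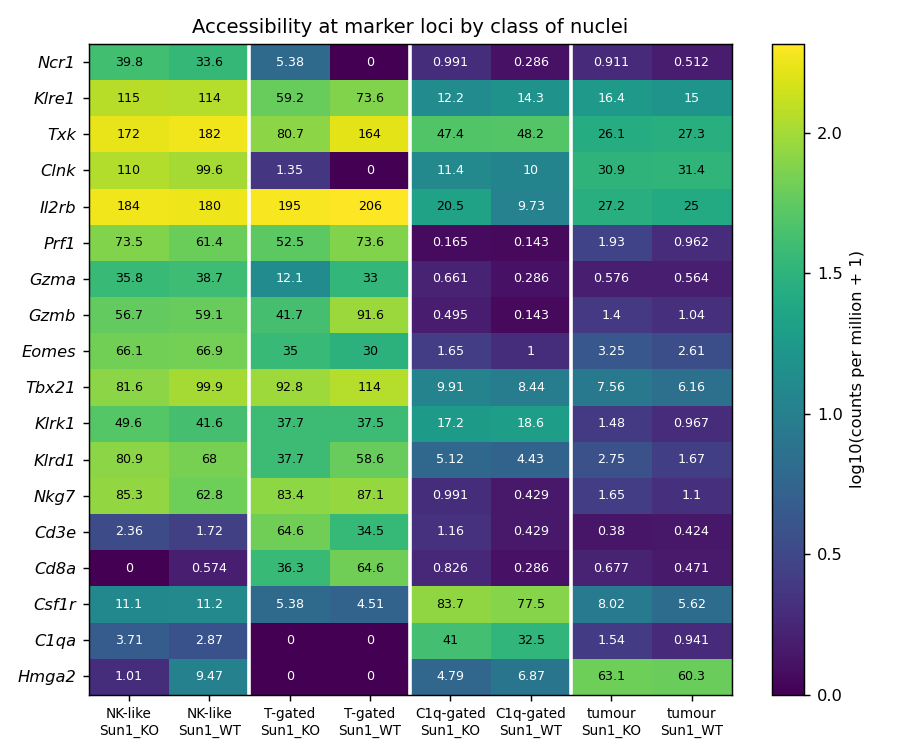
Heat map of CPM, written in each cell, at the named loci (down) in NK-like, T-gated, C1q-gated and tumour nuclei of Sun1_KO and Sun1_WT (across), coloured by log10 of the value plus 1. Ncr1 stands at 39.8 CPM in Sun1_KO and 33.6 CPM in Sun1_WT NK-like nuclei and at most 5.38 CPM in the other classes, whereas Prf1, Gzmb and Nkg7 are open in both NK-like and T-gated nuclei.

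Receptor genes of the NK-like nuclei differed in both directions. Of all genes, 4.6% were past 2-fold upward and 4.19% downward. The 7 measured activating receptor genes had a median of -0.02, with 1 past 2-fold in each direction. Cd226, the receptor for nectin-family ligands on target cells, was the higher one, at 361 CPM in Sun1_KO and 133 CPM in Sun1_WT, a log2 ratio of 1.43 (0.94 to 1.94). Tnfrsf9, the costimulatory receptor 4-1BB that appears on activated lymphocytes, was the lower one, at 238 CPM in Sun1_KO and 536 CPM in Sun1_WT, a log2 ratio of -1.16 (-1.59 to -0.77). Klrk1, which encodes NKG2D, was at -0.02 (-0.33 to 0.28), Cd244a at 0.16 (-0.20 to 0.53) and Klrc2 at -0.23 (-0.76 to 0.28).

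Of 13 Ly49 receptor genes, which bind MHC class I, 2 were measured. Klra7, the inhibitory receptor Ly49G, had 129.7 CPM in Sun1_KO and 365 CPM in Sun1_WT, a log2 ratio of -1.48 (-2.06 to -0.96), with UMIs in 18 and 37 nuclei, and Klra3 was at -0.35 (-0.79 to 0.08). Ly49 genes are near-identical copies, so their reads may have been split or lost. Beside the 4.6% of all genes past 2-fold upward and 4.19% downward, the inhibitory receptor and brake genes again had 1 in each direction. The 11 measured had a median of 0.26. The lower one was Klrg1, a cadherin-binding receptor of mature NK cells, at -1.69 (-2.83 to -0.78), in 7 Sun1_KO and 26 Sun1_WT nuclei. The higher one, the phosphatase gene Ptpn6, was at 1.12 (0.49 to 1.78), but at -0.59 without nuclei that held C1q or Hmga2 UMIs. Klrd1, the CD94 partner of NKG2 chains, was at -0.27 (-0.56 to 0.00) and Cblb, a ubiquitin ligase that restrains NK cells, at 0.26 (0.01 to 0.51).

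Adaptor and signalling genes lay slightly above all genes as a list. All genes had 4.6% past 2-fold upward, 4.19% past 2-fold downward and a median of 0.12. The 24 measured of this list had a median of 0.31, 2 of them past 2-fold upward and 1 past 2-fold downward. The lower one was Tyrobp, the DAP12 adaptor that carries the signal of several activating receptors, at 291 CPM in Sun1_KO and 811 CPM in Sun1_WT, a log2 ratio of -1.47 (-1.84 to -1.13). It was at -1.82 without nuclei that held C1q or Hmga2 UMIs; macrophages also make it. The higher ones were Syk, a kinase that docks on such adaptors, at 1.74 (1.15 to 2.37), and Grap2, an adaptor of the LAT complex, at 1.32 (0.83 to 1.83). Skap1, the most counted of the list, was at 0.14 (-0.03 to 0.30).

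Transcription factor genes had 3 of 21 at least 2-fold higher, none lower, and a median of 0.29, where all genes had 4.6% higher, 4.19% lower and a median of 0.12. Ikzf2, which encodes Helios, a zinc-finger factor of the Ikaros family, had 205 UMIs in Sun1_KO and 51 in Sun1_WT, which is 719 CPM in Sun1_KO and 128 CPM in Sun1_WT, a log2 ratio of 2.47 (2.04 to 2.96). Its UMIs lay in 37 Sun1_KO and 23 Sun1_WT nuclei. In Sun1_KO 1 nucleus held 48 of them and another 37, at NK gene sums of 3 and 5. Without the fullest nucleus of each library the ratio was 2.37. After thinning, an Ikzf2 UMI was found in 25.8% of Sun1_KO nuclei and 12.9% of Sun1_WT nuclei. The Ikzf2 locus stood at -0.12 (-0.39 to 0.14) in chromatin. The RNA difference was not limited to the class, since an Ikzf2 UMI was found in 31.5% of Sun1_KO and 4.64% of Sun1_WT tumour nuclei.

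The other 2 factors differed in how they held up. Maf, a bZIP factor, was at 1.34 (0.84 to 1.86), and at 2.91 without nuclei with C1q or Hmga2 UMIs. Zeb2, a repressor needed for NK cell maturation and also made by macrophages, was at 1.596 (1.32 to 1.88), but at 0.36 without those nuclei and at -0.51 in nuclei with under 5% mitochondrial UMIs. Among factors that define NK cells, Eomes was at -0.49 (-1.16 to 0.14) with 32 UMIs in Sun1_KO and 63 in Sun1_WT, Id2 at -0.12 (-0.37 to 0.12) and Irf8 at -0.08 (-0.32 to 0.17), none past 2-fold.

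Genes of the interferon response stood higher in Sun1_KO. Of 16 measured, 8 were at least 2-fold higher, none was lower, and all 16 lay above 0, with a median of 0.96. Of all 3220 genes 4.6% were higher by as much, 1907 lay above 0 and the median was 0.12. Samhd1, a nucleotide hydrolase that restricts viruses, was at 593 CPM in Sun1_KO and 217 CPM in Sun1_WT, a log2 ratio of 1.45 (1.07 to 1.84). Gbp2, a guanylate-binding protein, was at 1.52 (0.81 to 2.30), Isg15, a ubiquitin-like modifier, at 1.23 (0.46 to 2.05), Nlrc5, the activator of MHC class I genes, at 1.22 (0.74 to 1.71), Rnf213 at 1.20 (0.82 to 1.59) and the factor Irf1 at 1.02 (0.48 to 1.57). These named genes are all among the 8 past 2-fold. The lowest of the 16, Trim30a and Ifi204, lay above 0 but short of 2-fold.

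That difference was smaller in the nuclei with the least admixed RNA. Without nuclei that held a C1q or Hmga2 UMI, 1 of the 16 was at least 2-fold higher, 14 lay above 0 and the median was 0.61. With at most 1 C1q UMI allowed 5 were, at a median of 0.72, and with all nuclei weighted equally 2 were, at a median of 0.66. After thinning to 1000 UMIs the median was 0.09, with 2 genes past 2-fold upward and 1 downward. Of all genes measured in these settings, in order, 79 of 1719, 82 of 2595, 134 of 3220 and 13 of 456 were higher by as much. After thinning, 29 of the 456 were lower by as much. C1q UMIs in NK-like nuclei numbered 313 in Sun1_KO and 247 in Sun1_WT, which is 1097 and 622 CPM, and a list of 12 macrophage genes summed to 1956 and 2040 CPM. The part of macrophage RNA in the interferon difference was not tested. The median of the same list was 0.35 in C1q-gated and 0.22 in tumour nuclei, and it was 0.07 over 26 interferon loci in chromatin, none past 2-fold.

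Secreted factors were sparse. Of 4 measured, Xcl1, the chemokine that attracts cross-presenting dendritic cells, was at least 2-fold lower, at 158 CPM in Sun1_KO and 360.2 CPM in Sun1_WT, a log2 ratio of -1.18 (-1.71 to -0.70). Of all genes 4.19% were lower by as much. Ccl5 was at 0.91 (0.48 to 1.35), Ccl4 at 0.74 (0.06 to 1.45) and Ltb, a lymphotoxin chain, at 0.21 (-0.22 to 0.63). Ifng had 6 UMIs in Sun1_KO and 14 in Sun1_WT, too few to compare. The 5 measured genes of granule release had a median of -0.18 and none past 2-fold, among them Lyst, which shapes lysosomes, at 0.42 (-0.07 to 0.90), Serpinb9, which protects the killer from its own granzyme B, at -0.51 (-0.94 to -0.09), and Lamp1 at -0.18 (-0.81 to 0.41).

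Cytokine receptor and JAK-STAT genes had 3 of 18 at least 2-fold higher, none lower, and a median of 0.35, against 4.6% of all genes higher and their median of 0.12. The 3 were the kinase genes Tyk2 at 1.34 (0.62 to 2.12), Jak2 at 1.13 (0.57 to 1.72) and Pim1 at 1.07 (0.59 to 1.56). Bcl2, the survival gene maintained by interleukin 15, was at 852 CPM in Sun1_KO and 1420.5 CPM in Sun1_WT, a log2 ratio of -0.74 (-0.96 to -0.52), and its antagonist Bcl2l11, which encodes BIM, was at -0.84 (-1.37 to -0.34). Both lay short of 2-fold. Stat4, which relays interleukin 12, was at 0.50 (0.21 to 0.79).

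Genes that tell tissue residence from circulation gave no 2-fold difference in either list. Of 10 measured residence and TGF-beta genes the median was 0.37, with Itga1, the CD49a chain of resident cells, at -0.72 (-1.11 to -0.35), Rgs1 at -0.74 (-1.21 to -0.30) and Inpp4b at 0.58 (0.38 to 0.79). Of 7 measured circulation genes the median was 0.48, with Itga2 at 0.94 and Spn at -0.07 (-0.50 to 0.34). Trafficking genes had 1 of 16 at least 2-fold higher, against 4.6% of all genes, and a median of 0.37. The higher one was Icam1 at 1.01 (0.19 to 1.87), and the migration regulators Dock2 and Dock8 were at 0.61 (0.42 to 0.80) and -0.37 (-0.59 to -0.16). The other lectin genes of the NK complex, 4 measured, had a median of 0.27 and none past 2-fold.

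**Figure D4:**
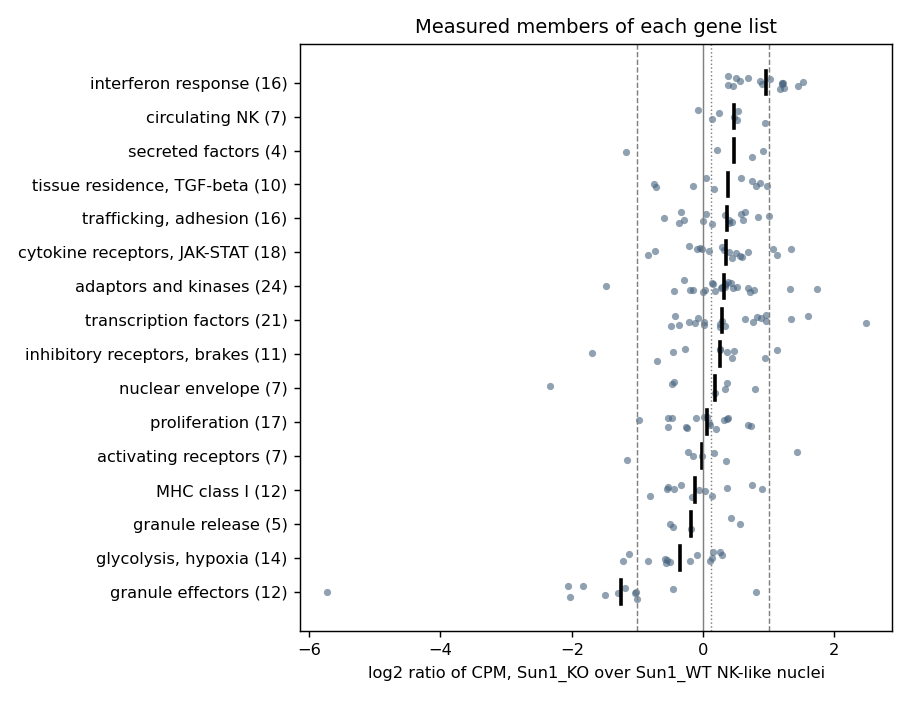
Log2 ratio of Sun1_KO over Sun1_WT in NK-like nuclei for the measured members of each role list, 1 point per gene, with the list's median marked. The granule effector list has the lowest median of those drawn at -1.25 and the interferon list the highest at 0.96.

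Across all genes, several of the largest differences had many of their UMIs in 1 nucleus. Among the higher genes, Marcks at 3.23 (2.62 to 3.96), Cybb at 2.68 (2.09 to 3.36), Cxcl9 at 2.82 (1.97 to 3.90), Tnfaip2 at 2.44 (1.67 to 3.37) and Cadm1 at 2.09 (1.54 to 2.70) had their fullest Sun1_KO nucleus in common. That nucleus had 25340 UMIs, 50 of them from C1q genes, and a summed NK gene count of 8, and it held 46.8% of the Marcks and 55.6% of the Cxcl9 UMIs. Cybb is the oxidase subunit of phagocytes and Cxcl9 a chemokine that interferon gamma induces in macrophages. Without the fullest nucleus of each library, Marcks was at 2.75, Cxcl9 at 2.22, Tnfaip2 at 1.96, Cadm1 at 1.595 and Cybb at 3.13. Ly86 was at 2.87 (1.83 to 4.23) and Slc8a1 at 2.35 (1.76 to 3.03).

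Other higher genes were spread over more nuclei. Taco1, which encodes a factor for translation of a mitochondrial oxidase subunit, was at 2.96 (2.08 to 4.09), with UMIs in 40 Sun1_KO and 10 Sun1_WT nuclei. It was not limited to the class, since a Taco1 UMI was found in 26.9% of Sun1_KO and 3.95% of Sun1_WT C1q-gated nuclei and in 29.0% and 13.7% of tumour nuclei. Slco3a1, an organic anion transporter, was at 2.23 (1.61 to 2.94), in 33 and 14 nuclei, and at 1.31 without nuclei holding C1q or Hmga2 UMIs.

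Several of the lower genes outside the granzymes had most of their Sun1_WT UMIs in 1 nucleus. Bnc2 had 0 UMIs in Sun1_KO and 54 in Sun1_WT. With Sun1_KO set to the floor of 3 counts over the class it was 12.9-fold lower, and its log2 interval ended at -3.34. The UMIs lay in 5 Sun1_WT nuclei, 24 of them in 1 nucleus, and tumour nuclei had 471 CPM in Sun1_KO and 293 CPM in Sun1_WT. Fn1, which encodes fibronectin, was at -2.51 (-3.07 to -2.02), but 159 of its 289 Sun1_WT UMIs lay in 1 nucleus, without which, and without the fullest Sun1_KO nucleus, it was at -1.48. Slit2 was at -3.05 (-3.76 to -2.46) with 75.9% in 1 nucleus, Fbln2 at -3.01 (-4.80 to -1.83) with 86.9%, Glis3 at -3.49 (-5.57 to -2.23) with 81.4% and Slit3 at -3.94 (-5.52 to -2.89) with 53.6%. Without the fullest nuclei they were at -1.35, -0.44, -1.96 and -3.07 for Slit2, Fbln2, Glis3 and Slit3. Plcb1 was at -2.93 (-4.38 to -1.91) with 64.6% in 1 nucleus, and Def8 at -3.995 (-7.39 to -2.38), in 2 Sun1_KO and 16 Sun1_WT nuclei. Fn1, Plcb1, Def8, Glis3 and Fbln2 had their fullest Sun1_WT nucleus in common, with 15026 UMIs, 4 of them from Hmga2. In Sun1_WT tumour nuclei Slit2 stood at 3205 CPM, Slit3 at 1520, Fn1 at 1413, Def8 at 994, Plcb1 at 740, Fbln2 at 179 and Glis3 at 38.9. The part of tumour RNA in these differences was not tested. Fibroblast markers summed to 266 CPM in Sun1_KO and 924 CPM in Sun1_WT NK-like nuclei, and tumour markers to 105 and 282 CPM. Of 4 fibroblast markers measured, 3 were at least 2-fold lower, against 4.19% of all genes, with a median of -1.95. The fibroblast direction turned with a few nuclei: the median was 0.47 without nuclei holding an Hmga2 UMI, 0.21 without the 5% deepest nuclei, 0.28 in nuclei under 10000 UMIs, 0.23 without C1q or Hmga2 UMIs and 0.52 after thinning.

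**Figure D5:**
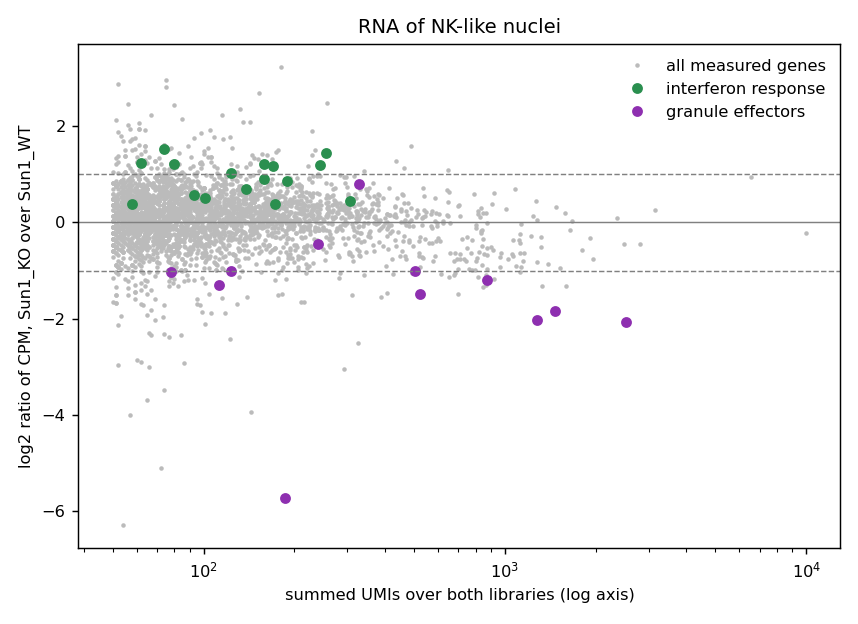
Log2 ratio of Sun1_KO over Sun1_WT against summed UMIs of both libraries (log axis) for all 3220 measured genes of NK-like nuclei, 1 point per gene, with granule effector and interferon genes in colour and dashed lines at 2-fold. Most genes lie within 2-fold, 148 lie above and 135 below.

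The 148 higher and 135 lower genes, 52.3% of them higher, depended on the scaling. With TMM or median-of-ratios size factors 118 were higher and 185 lower (38.9% higher), and with mitochondrial UMIs in the total 122 were higher and 171 lower (41.6%). TMM brought the median of all genes from 0.12 to 0.005, so a ratio above is also to be read against 0.12. The granule median was -1.36 and the interferon median 0.84 with TMM.

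Single open regions differed less than RNA. The region most open in Sun1_KO by the interval bound nearest 1 was chr5:147158977-147159888, with 87 counts in Sun1_KO and 33 in Sun1_WT, a log2 ratio of 1.62 (1.04 to 2.26), and no gene within 1 kb. The region chr15:66789090-66790188, at Sla, an adaptor that limits lymphocyte receptor signalling, and Tg, had 82 and 36 counts. The region least open in Sun1_KO was chr2:128152684-128153942 at Bcl2l11, with 10 and 96 counts, a log2 ratio of -2.97 (-4.14 to -2.09), while all regions at Bcl2l11 together were at 0.15. Bases of these regions were not used here.

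Markers of further cell types gave few UMIs. B cell markers gave 7 UMIs in Sun1_KO and 42 in Sun1_WT, neutrophil markers 12 and 3, dendritic cell markers 12 and 5, and mast cell markers 2 and 5. Endothelial markers gave 13 and 4, and those of other innate lymphoid cells 20 and 11. Those of gamma delta T cells, Trdc among them, gave 61 and 43. This was 214 CPM in Sun1_KO and 108 CPM in Sun1_WT, above the 42.9 and 78.6 CPM of T-gated nuclei. Xist, made from an inactive X chromosome, had 1655 CPM in Sun1_KO and 1358 CPM in Sun1_WT NK-like nuclei, against 65.2 and 29.2 CPM in tumour nuclei.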

How the data were processed

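RNA and open chromatin were read in the same nuclei with the 10x Chromium multiome kit, per the labels' protocols. The authors deposited a table of UMI counts per gene and a table of counts per called region for each library. FastQC, Cell Ranger, Cell Ranger ARC, Seurat, Signac and mm10 are named per the submitters' processing notes, which give no versions. Values were whole numbers. A table of the authors' own comparison was not used here. Total UMIs were 35471291 in Sun1_KO and 53707675 in Sun1_WT, and all columns belonged to these 2 libraries.

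The members and gene lists were chosen with earlier results of these data known. Nuclei with at least 500 UMIs, 300 genes and at most 20% mitochondrial UMIs were gated on markers as described. T-gated nuclei had a T gene sum of at least 3 and an NK gene sum of at most 2, C1q-gated nuclei had at least 3 C1q UMIs, at most 1 T gene UMI and an NK gene sum of at most 2, and tumour nuclei had at least 5 Hmga2 UMIs per 10000. No clustering was used and no doublet caller was run, so nuclei with RNA of 2 cell types can be members.

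UMIs were summed per class and library and divided by non-mitochondrial UMIs. Ratios are log2 of Sun1_KO over Sun1_WT with 0.5 added to each count, for genes with at least 50 summed UMIs, and 2-fold was the size named. Intervals are exact Poisson, binomial or conditional binomial at 95%. Regions of both libraries were merged where they overlapped by at least 1 base, only regions called in both were used, with at least 100 summed counts, and a locus took the regions within 1 kb of the gene. Sums were checked on simulated data. The text names the gate genes, granule genes with at least 20 UMIs, and some of the highest, lowest and most counted members of the other lists. Not every such member is given, and some genes, such as Irf1, are named outside that rule. The text also names the 10 higher and 10 lower genes by the interval bound nearest 1, without mitochondrial and unnamed genes. Sequences are from RefSeq and matched 24 of 27 genes, and 26296 of 32285 genes were placed on the assembly. Python 3.11.15, numpy 2.4.6, pandas 2.3.3, scipy 1.17.1 and, for TMM as an alternative scaling, edgeR 4.0.16 in R 4.3.3 were used.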

Additional observations from a re-analysis of the deposited data

Results flagged for a closer look

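Some genes differed in opposite directions in the NK-like nuclei and in another class. None of these differences between classes was tested, since each class has 1 library per genotype. Ikzf2 was at 2.47 (log2 ratio of Sun1_KO over Sun1_WT) in NK-like nuclei and at -1.07 in T-gated nuclei. In tumour nuclei it was also higher in Sun1_KO, at 48.2 CPM against 7.07 CPM in Sun1_WT, a log2 ratio of 2.77 (2.59 to 2.95). Klra7 was at -1.48 in NK-like nuclei and at 1.20 in tumour nuclei. Gzmd was at -1.02 in NK-like nuclei and at 1.36 in tumour nuclei. Both genes were at trace levels outside the NK-like nuclei. No other class was above 1.54 CPM in Sun1_KO and 0.639 CPM in Sun1_WT for Klra7, or 1.54 and 1.99 CPM for Gzmd. Glis3 was at -3.49 in NK-like nuclei, at 3.43 in C1q-gated nuclei and at 1.55 in tumour nuclei. Fbln2 was at -3.01 in NK-like nuclei and at 2.75 in C1q-gated nuclei. For Glis3 and Fbln2, 81.4% and 86.9% of the Sun1_WT UMIs of the NK-like nuclei lay in 1 nucleus.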

How the results depend on the processing

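The count of genes at least 2-fold higher, 148 as reported, was 79 without Hmga2 UMIs, 82 with at most 1 C1q UMI, 13 after thinning, 441 with at least 20 summed UMIs, 52 with at least 100, 2449 with no minimum and 74 without the 5% deepest nuclei. It was 70 in nuclei under 10000 UMIs, 91 under 5% mitochondrial UMIs and 79 without C1q and Hmga2 UMIs, 3 settings chosen after seeing the data. The count lower, 135 as reported, was 29 after thinning, 421, 55 and 3210 with those minimums, 79 under 10000 UMIs and 85 without C1q and Hmga2 UMIs. NK loci over tumour nuclei, at 2.62 on the log2 scale in both libraries, were at 2.15 in Sun1_KO and 2.20 in Sun1_WT when regions were scored as open or not, and at 2.54 in Sun1_KO with regions overlapping the gene alone. Regions more and less open, 52 and 157, were 280 and 1167 with at least 50 counts, 4 and 13 with at least 200, and 0 and 0 when scored as open or not, where 188 nuclei can barely reach 100.

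Among genes past 2-fold, directions turned for Slit2 (1.53 without Hmga2 UMIs), Cadm1 (-0.36 with at most 1 C1q UMI and -1.11 under 5% mitochondrial UMIs), Gzmd, Gzmf and Rnf213 (2.03, 0.60 and -0.12 after thinning), Zeb2 (-0.51 under 5% mitochondrial UMIs) and Ptpn6 (-0.59 without C1q and Hmga2 UMIs). Short of 2-fold, Ctsc turned from 0.80 to -0.37 under 5% mitochondrial UMIs and to -0.14 without C1q and Hmga2 UMIs, and Gzme from -0.78 to 2.004 after thinning. The cause was not tested. The granule median stayed between -1.61 and -1.05, the interferon median between 0.64 and 1.01 over the genes with 50 summed UMIs in each setting (over the 16 genes as reported, 0.61 without C1q and Hmga2 UMIs and 0.09 after thinning), and the ratio of shares between 1.36 and 1.57. No paired analysis was possible because each genotype gave 1 library. Genes under 50 summed UMIs are beyond this depth, and without replicates no difference can be set against the spread between tumours.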

Other observations

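Proliferation genes gave no 2-fold difference in NK-like nuclei. Of 17 measured, 10 lay above 0, with a median of 0.06. Top2a, the topoisomerase of dividing cells, had 138 UMIs in Sun1_KO and 168 in Sun1_WT, in 22 of 93 and 31 of 95 nuclei, a log2 ratio of 0.19 (-0.14 to 0.53). The 12 MHC class I genes had a median of -0.12 and none past 2-fold, with H2-K1 at 0.03 (-0.11 to 0.17), H2-D1 at -0.45 (-0.56 to -0.34), the peptide transporter gene Tap1 at 0.89 (0.46 to 1.33) and the chaperone gene Calr at -0.80 (-1.18 to -0.45).

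Genes of glycolysis and hypoxia had 2 of 14 at least 2-fold lower in Sun1_KO and a median of -0.35. Of all genes 4.19% were lower by as much, and their median was 0.12. The lower ones were P4ha1, a collagen prolyl hydroxylase, at -1.13 (-1.99 to -0.39) and Ndrg1, a hypoxia-induced gene, at -1.23 (-2.20 to -0.40), the second at -0.73 without its fullest nucleus in each library. Gapdh was at -0.56 (-0.87 to -0.26) and Hif1a at 0.29 (-0.08 to 0.65). Of 7 measured nuclear envelope genes, with Sun1 too low to be among them, Lmna, the gene of lamins A and C, was at least 2-fold lower with 8 UMIs in Sun1_KO and 59 in Sun1_WT, a log2 ratio of -2.33 (-3.68 to -1.33), and at -1.91 without nuclei holding C1q or Hmga2 UMIs.

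The share of chromatin counts on chromosome X was 1.44% in Sun1_KO and 1.42% in Sun1_WT NK-like nuclei, and 1.37% and 1.51% in tumour nuclei.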
